A study of Homo sapiens with 9 samples.

Results

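The 40 genes described here encode plasma proteins made by the liver, 21 of them of blood coagulation and fibrinolysis and 19 of complement, in HepG2 cells given eliglustat. The genes were named by symbol, and each of the 40 was found by its Ensembl identifier among the 62703 genes listed in the count files. Of the 40, 35 passed the filter on low counts and were among the 17623 genes tested. HepG2 is a human hepatocellular carcinoma line, and eliglustat is a drug that inhibits glucosylceramide synthase, the enzyme that makes glucosylceramide from ceramide. The 3 groups were untreated control cells, cells given eliglustat at 20 µM and cells given eliglustat at 30 µM, with 3 RNA sequencing libraries in each. Treatment lasted 72 h in both dosed groups, while no time is labelled for the controls. All 9 libraries come from a single tumour line with no genetic change made by the study, grown without the blood vessel, immune or stromal cells of a liver.

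Coagulation is a chain of serine protease zymogens that ends in thrombin, which turns soluble fibrinogen into the fibrin of a clot, while serpins and the protein C pathway hold the chain back and plasmin dissolves the clot. Complement is a related chain of plasma proteins in which the classical, lectin and alternative routes meet at the cleavage of C3, and its late components assemble into a pore in the membrane of the target. Hepatocytes secrete most of these proteins into plasma, and HepG2 cells have long been used to study their synthesis.

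Counts in genes ranged between 21103757 and 26782810 per library, and 40.62 to 43.98% of the records fell in no single gene. Whether the 3 libraries of a group are separate cultures is not labelled, so the p-values reflect the spread of these libraries alone, and that spread may be technical. No 2 libraries of a group agreed within sampling noise, with a chi-square per gene of 2.1 to 7.94. The library of control 1, that of 20 µM 3 and that of 30 µM 3 deviated from their group means together across genes (r = 0.331 to 0.352). All 8 hepatocyte markers were detected, and their summed level was 30962 to 31948 CPM (counts scaled to library size) in control libraries, 34504 to 34893 CPM at 20 µM and 39038 to 39417 CPM at 30 µM. APOB, the largest part of that sum, averaged 19949.8 ± 296 CPM in control libraries, 21520.5 ± 292 CPM at 20 µM and 27773 ± 419.8 CPM at 30 µM (SD, n = 3 each). Of the 8, 6 rose and 2 fell at 20 µM against control, where 17.2% of all genes tested rose and 16.9% fell. At 30 µM against control 3 rose and 3 fell (median log2 change -0.026). That is 37.5% each way, not far from the 29.5% and 31.3% of all genes tested. ALB changed by -0.32 ± 0.033 at 20 µM and -0.47 ± 0.033 at 30 µM, AFP by -0.38 ± 0.031 and -0.52 ± 0.031, and HNF4A by 0.17 ± 0.032 and -0.23 ± 0.032 (log2 ± SE against control in edgeR's test, all past an adjusted p of 0.05). Of 6 fibroblast and stellate markers, 2 (COL1A2 and DCN) had 0 counts in every library, and the 6 summed to at most 3.51 CPM. Of 6 endothelial markers, CLEC4G had 0 counts in every library and the sum was at most 6.06 CPM. Among 6 leukocyte markers PTPRC had 0 counts in every library, and the sum of 438 to 667 CPM was nearly all lysozyme (LYZ). Mitochondrially encoded RNAs took 3.45 ± 0.518% of gene counts in control libraries, 3.695 ± 0.187% at 20 µM and 5.47 ± 0.373% at 30 µM (SD, n = 3 each). The part of these shifts in the results below was not tested.

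At 20 µM most of the 35 tested genes were at or above the untreated level, and at 30 µM most were below it. Against control, 20 µM went with more RNA of the vitamin K-dependent proteases F10 and F7, of C3 and of the plasmin inhibitor SERPINF2, and with less RNA of the pore subunits C8A and C8B. At 30 µM the C8A, C8B, CPB2, KNG1 and CFI RNAs and all 3 fibrinogen chains were lower than in control libraries, while C3 and F10 were higher. Between the doses, 27 of the 35 genes passed an adjusted p of 0.05 as lower at 30 µM than at 20 µM. Of all genes tested, 28.9% did so. In RNA from a whole culture, fewer cells making a gene and less of its RNA per cell cannot be told apart.

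Changes are log2 values ± SE from edgeR's quasi-likelihood test, with Benjamini-Hochberg adjustment over the 17623 genes, and the words rose and fell are kept for genes with an adjusted p under 0.05. In 20 µM against control, 17 of the 35 tested genes rose and 4 fell, where 17.2% of all genes tested rose and 16.9% fell (34.2% in either direction). The median log2 change of the 35 was 0.14, against 0.0087 over all genes tested. The 20 µM libraries lay entirely above the controls for 20 of the 35 genes and entirely below for 5, where 22.4% and 22.1% of all genes did so. In 30 µM against control, 7 rose and 19 fell, where 29.5% of all genes rose and 31.3% fell (60.8% in either direction). The 30 µM libraries lay entirely above the controls for 8 of the 35 and entirely below for 20, where 31.3% and 33.8% of all genes did so. The median there was -0.22, against -0.036 over all genes tested. In 30 µM against 20 µM, 27 of the 35 fell and only MASP1 rose, where 28.9% of all genes fell and 28.0% rose (57.0% in either direction). The median was -0.46, against -0.029 over all genes tested. The 30 µM libraries lay entirely above those at 20 µM for 2 of the 35 and entirely below for 27, where 29.7% and 31.4% of all genes did so. Each pair of comparisons shares libraries, so their values are given side by side and not as independent results.

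With library totals alone in place of TMM scaling, the median change of all genes moved by -0.21 for 30 µM against control and by -0.19 for 30 µM against 20 µM. Of the calls at 30 µM against control, 30.6% were then higher, where TMM gave 48.5%, and of those for 30 µM against 20 µM 28.3% were higher, where TMM gave 49.2%. Changes below are relative to the TMM scale, and the genes described below whose direction turned without it are named where they are described. Library totals alone gave 3 rises and 23 falls among the 35 at 30 µM against control. Of all 17623 genes tested, 3530 then rose and 8022 fell. Between the doses, library totals alone gave 1 rise and 33 falls, where 3029 of all genes tested rose and 7690 fell.

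**Figure D1:**
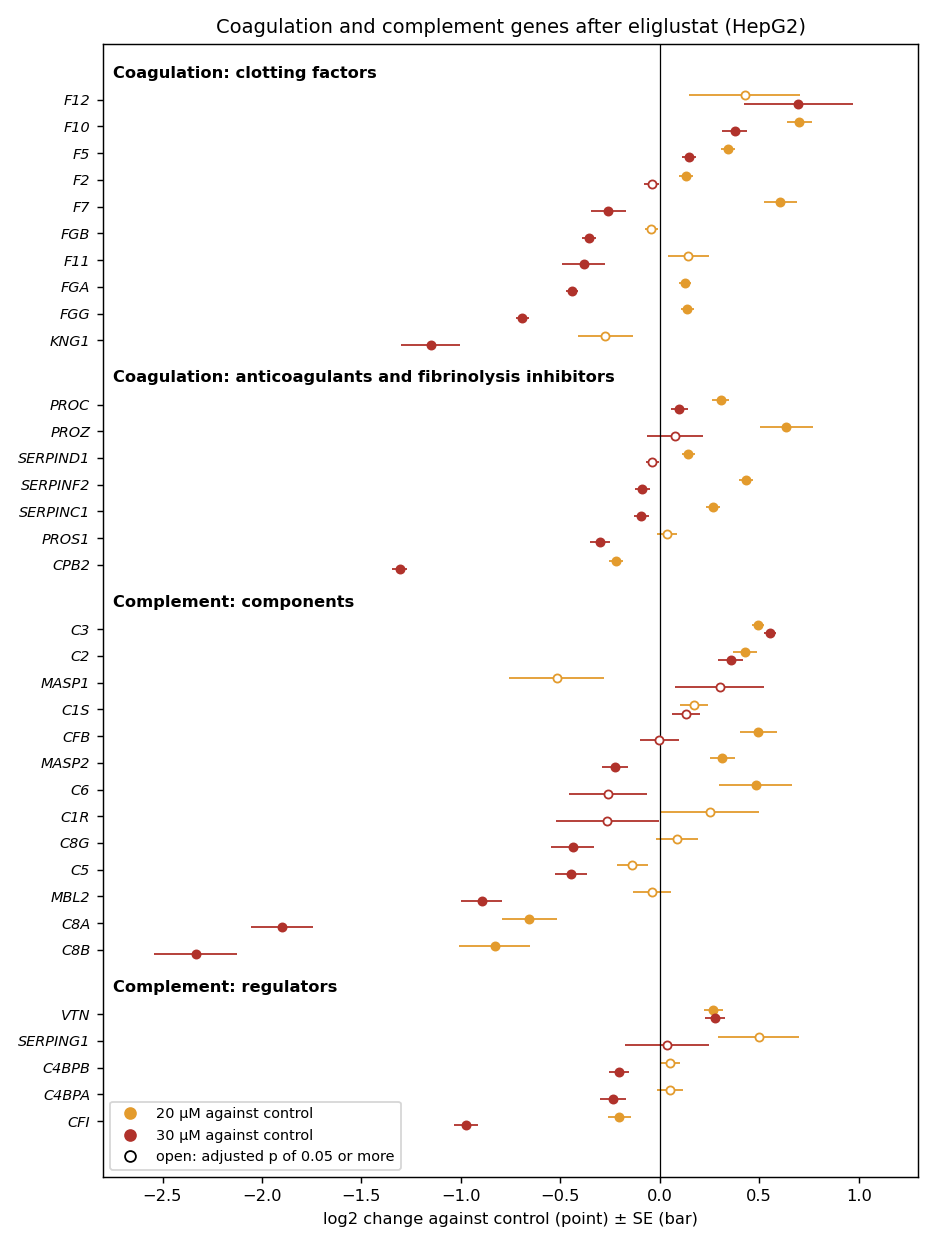
Log2 change against control of the 35 tested genes, with 20 µM in orange and 30 µM in red; points are estimates, bars are ± SE and open points have an adjusted p of 0.05 or more. Most orange points lie to the right of zero and most red points to the left, with C8B at -2.33 and C8A at -1.90 farthest left, and C3, C2 and VTN right of zero at both doses.

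The 3 fibrinogen chains were among the most abundant RNAs of the group, and each was lower at 30 µM than in control libraries. FGA, which encodes the alpha chain, had 1047, 1045 and 1080.0 CPM in control libraries, 1135, 1142 and 1180.2 CPM at 20 µM and 780.1, 785 and 772 CPM at 30 µM. Libraries at 20 µM lay above the controls, and those at 30 µM below every other library. Its log2 change was 0.12 ± 0.030 (adjusted p = 0.00112) for 20 µM against control, -0.44 ± 0.030 (adjusted p = 1.09e-14) for 30 µM against control and -0.56 ± 0.030 (adjusted p = 2.52e-17) for 30 µM against 20 µM. FGB, the beta chain, had 620.4, 592 and 629.6 CPM in control libraries, 586, 575 and 627 CPM at 20 µM and 478, 483 and 479.8 CPM at 30 µM. Values at 20 µM overlapped the controls, and the 30 µM libraries lay below both groups. FGB changed by -0.043 ± 0.034 (adjusted p = 0.361) at 20 µM and -0.36 ± 0.034 (adjusted p = 4.92e-11) at 30 µM, each against control. FGG, the gamma chain, had 1897, 1944 and 2038 CPM in control libraries, 2122, 2121 and 2229 CPM at 20 µM and 1218, 1236 and 1187 CPM at 30 µM. Its 3 groups did not overlap, and the 30 µM libraries stood apart as the lowest. FGG rose at 20 µM by 0.14 ± 0.032 (adjusted p = 0.000661) and at 30 µM changed by -0.69 ± 0.032 (adjusted p = 3.18e-19), the largest fall of the 3 chains. The rise of FGG at 20 µM did not pass when the 3 libraries that deviate together were left out (adjusted p = 0.0566).

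Per length, the chains did not hold one ratio across the groups. FGG made up 52.4 ± 0.689% of the summed fibrinogen TPM (a level per exon length, scaled to one total in every library) in control libraries, 53.96 ± 0.0768% at 20 µM and 47.4 ± 0.376% at 30 µM (SD, n = 3 each). FGB made up 21.8 ± 0.556%, 19.8 ± 0.3405% and 24.9 ± 0.275% in the same order of groups, and FGA 25.7 ± 0.233%, 26.2 ± 0.264% and 27.7 ± 0.115%. The 30 µM libraries lay below every other library for the FGG share, and above every other library for the FGA and FGB shares. The 3 genes stand within 50012 bases of chromosome 4, FGB at chr4:154562956-154571086 on the plus strand, FGA at chr4:154583126-154590766 and FGG at chr4:154604134-154612967 on the minus strand, in GENCODE 29 on GRCh38.

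The promoters of the 3 chains are shown because these neighbours are made in parallel for one protein and yet moved by different amounts. Each sequence runs 5′ to 3′ from 250 bases before to 50 bases after the RefSeq start (GRCh38.p14), FGA at chr4:154590693-154590992 (minus), FGB at chr4:154562730-154563029 (plus) and FGG at chr4:154612607-154612906 (minus). Capitals mark matches on either strand to letters bound by liver and acute phase factors, which are GTTAAT (HNF1), CAAAGTCC (HNF4), TTGCNNAA (C/EBP), TTCNNNGAA (STAT) and an NF-kB motif.
FGA: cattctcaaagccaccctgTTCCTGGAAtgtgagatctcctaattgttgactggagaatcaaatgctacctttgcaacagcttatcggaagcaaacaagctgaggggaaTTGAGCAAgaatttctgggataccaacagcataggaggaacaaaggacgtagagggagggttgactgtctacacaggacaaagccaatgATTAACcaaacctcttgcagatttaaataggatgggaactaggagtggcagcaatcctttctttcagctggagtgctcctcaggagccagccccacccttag
FGB: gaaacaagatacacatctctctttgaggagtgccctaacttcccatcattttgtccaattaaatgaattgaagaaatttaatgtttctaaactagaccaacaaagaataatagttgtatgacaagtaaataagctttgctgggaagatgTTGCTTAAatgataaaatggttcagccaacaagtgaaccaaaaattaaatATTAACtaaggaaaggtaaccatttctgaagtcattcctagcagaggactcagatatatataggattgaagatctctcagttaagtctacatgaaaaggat
FGG: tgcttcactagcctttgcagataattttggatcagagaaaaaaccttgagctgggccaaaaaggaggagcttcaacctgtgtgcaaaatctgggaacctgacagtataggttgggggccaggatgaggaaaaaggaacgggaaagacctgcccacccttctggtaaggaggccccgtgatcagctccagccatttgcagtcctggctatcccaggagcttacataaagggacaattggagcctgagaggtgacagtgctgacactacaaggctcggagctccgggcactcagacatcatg
FGA held the HNF1, C/EBP and STAT letters, FGB the HNF1 and C/EBP letters, and FGG none of the 5 motifs in this window. The HNF1 match began 52 bases before the start in FGA and 51 bases before it in FGB.

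**Figure D2:**
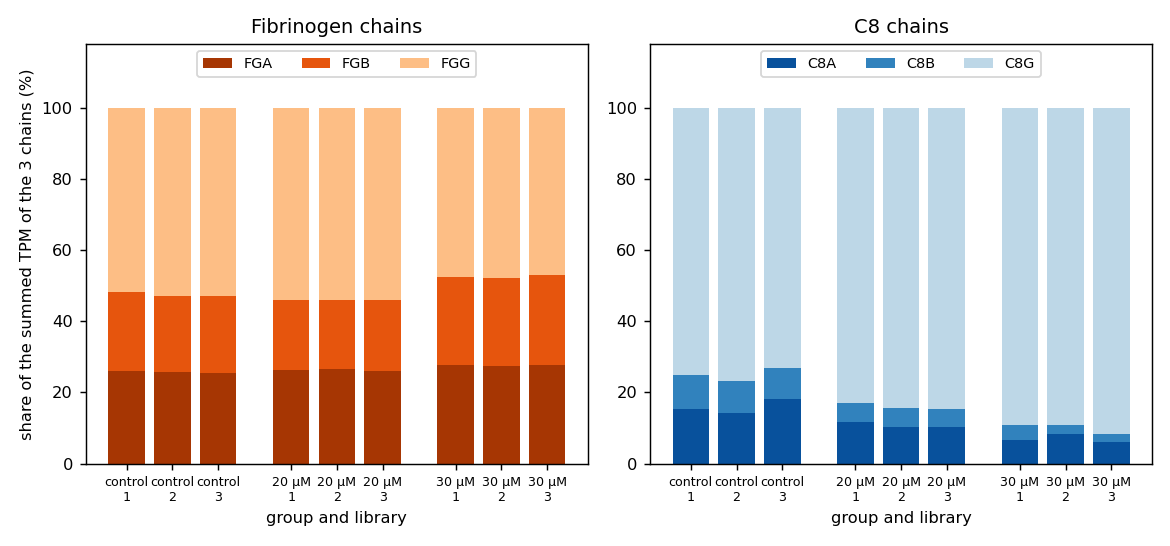
Share of the summed TPM (%) of the 3 fibrinogen chains (left) and the 3 chains of complement C8 (right) in each of the 9 libraries. The FGG share is smallest at 30 µM, and C8G takes a larger share at each step from control to 20 µM to 30 µM.

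F10, F7, F5 and F2, the 4 tested genes of the common and tissue factor pathways, all rose at 20 µM against control. Of all genes tested, 17.2% rose there. At 30 µM the 4 genes parted. Tissue factor itself (F3), outside the 40, changed by -0.040 ± 0.13 (adjusted p = 0.865) at 20 µM against control. F10, whose active form Xa makes thrombin, had 23.6, 24.2 and 24.6 CPM in control libraries, 35.9, 41.7 and 40.4 CPM at 20 µM and 30.2, 32.6 and 31.1 CPM at 30 µM. The 3 groups did not overlap, and the 20 µM libraries were highest. It rose by 0.70 ± 0.063 (adjusted p = 7.33e-11) at 20 µM and by 0.38 ± 0.064 (adjusted p = 5.45e-06) at 30 µM against control, and fell by 0.33 ± 0.062 on the log2 scale at 30 µM against 20 µM (adjusted p = 3.06e-05). F7, the protease that binds tissue factor, had 13.5, 14.6 and 14.98 CPM in control libraries, 22.2, 19.6 and 23.7 CPM at 20 µM and 12.5, 11.5 and 11.97 CPM at 30 µM. Every 20 µM library lay above all others, and every 30 µM library below them. F7 changed by 0.61 ± 0.083 (adjusted p = 3.96e-07) at 20 µM and by -0.26 ± 0.088 (adjusted p = 0.0114) at 30 µM, each against control. Without the 30 µM 2 library the fall at 30 µM did not pass (adjusted p = 0.0507).

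F5, the cofactor of factor Xa, had 196, 191 and 189 CPM in control libraries, 239.5, 243 and 249 CPM at 20 µM and 215, 212 and 211 CPM at 30 µM. The groups did not overlap, with 20 µM highest and control lowest. It rose by 0.34 ± 0.034 (adjusted p = 5.39e-10) at 20 µM and by 0.15 ± 0.034 (adjusted p = 0.00032) at 30 µM against control, but the second change was -0.063 (adjusted p = 0.0968) with library totals alone. F2, the thrombin precursor, had 281, 260.3 and 262 CPM in control libraries, 287, 285 and 306 CPM at 20 µM and 258, 259 and 263 CPM at 30 µM. Controls lay below the 20 µM libraries and overlapped those at 30 µM. F2 changed by 0.13 ± 0.036 (adjusted p = 0.0041) at 20 µM and by -0.042 ± 0.036 (adjusted p = 0.327) at 30 µM against control. Its rise at 20 µM did not pass without the 20 µM 3 library (adjusted p = 0.066), and with library totals alone its value at 30 µM was -0.25 (adjusted p = 9.83e-08).

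The F10 promoter is shown as that of the gene with the largest rise at 20 µM among the 35, at chr13:113122549-113122848 on the plus strand, with its HNF4 match across the start and its STAT match in capitals.
F10: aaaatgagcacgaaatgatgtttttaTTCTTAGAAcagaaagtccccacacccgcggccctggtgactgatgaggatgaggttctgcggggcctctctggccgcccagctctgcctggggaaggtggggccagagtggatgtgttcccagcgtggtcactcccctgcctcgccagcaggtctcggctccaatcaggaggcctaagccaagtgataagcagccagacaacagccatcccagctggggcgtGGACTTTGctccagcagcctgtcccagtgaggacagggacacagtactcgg
HNF4 letters stood in 3 of the 34 promoters of the group found in the RefSeq table (F10, PROZ and C4BPB).

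The contact system, which starts clotting on charged surfaces and frees bradykinin, was detected at low levels, with KLKB1 (plasma prekallikrein) listed at 0 in every library. KNG1, the kininogen from which bradykinin is cut, had 7.57, 7.08 and 6.43 CPM in control libraries, 5.44, 5.47 and 6.53 CPM at 20 µM and 3.52, 3.46 and 2.52 CPM at 30 µM. The 30 µM libraries lay below all others, and one 20 µM library reached into the control range. KNG1 changed by -0.27 ± 0.14 (adjusted p = 0.13) at 20 µM and fell by 1.15 ± 0.15 at 30 µM (adjusted p = 3.64e-08), a 2.22-fold lower level. F11, which activates factor IX, had 11.4, 10.2 and 9.49 CPM in control libraries, 11.8, 10.2 and 12.3 CPM at 20 µM and 7.27, 8.29 and 8.22 CPM at 30 µM. Control and 20 µM libraries overlapped, and 30 µM libraries were lower than both. F11 changed by 0.14 ± 0.10 (adjusted p = 0.32) at 20 µM and by -0.38 ± 0.11 (adjusted p = 0.0026) at 30 µM against control.

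F12, the protease that opens the contact system, had 0.933, 0.811 and 1.22 CPM in control libraries, 1.06, 1.55 and 1.43 CPM at 20 µM and 1.76, 1.36 and 1.73 CPM at 30 µM. The 30 µM libraries were above the controls, and the 20 µM libraries overlapped both groups. F12 changed by 0.43 ± 0.28 (adjusted p = 0.257) at 20 µM and rose by 0.70 ± 0.27 (adjusted p = 0.0284) at 30 µM, on only 291 counts over the 9 libraries. That rise did not pass without control 1 (adjusted p = 0.079), control 2 (0.105), 30 µM 1 (0.0823) or 30 µM 3 (0.0787), nor with library totals alone (0.122), nor without the 3 libraries that deviate together (0.149). F12 shares 399 exon bases with GRK6 on the other strand, and since the strand setting of the counting is not given, reads of the 2 genes may not have been told apart.

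RNAs of the anticoagulants rose at 20 µM against control in 4 of 5 genes, where 17.2% of all genes tested rose. PROZ, the vitamin K-dependent cofactor of a factor Xa inhibitor, had 6.205, 5.36 and 5.17 CPM in control libraries, 9.55, 7.93 and 8.53 CPM at 20 µM and 4.49, 6.39 and 6.73 CPM at 30 µM. The 20 µM libraries lay above all others, and the 30 µM libraries overlapped the controls. PROZ changed by 0.64 ± 0.13 (adjusted p = 0.00028) at 20 µM and by 0.077 ± 0.14 (adjusted p = 0.659) at 30 µM against control, and the second value turned to -0.13 with library totals alone. SERPINC1, which encodes antithrombin, had 145, 153 and 143 CPM in control libraries, 176, 176 and 179 CPM at 20 µM and 138, 139.5 and 136 CPM at 30 µM. Highest were the 20 µM libraries, and the 30 µM libraries lay just below the controls. SERPINC1 rose by 0.27 ± 0.036 (adjusted p = 3.1e-07) at 20 µM and changed by -0.092 ± 0.036 (adjusted p = 0.0288) at 30 µM against control. This small fall did not pass without control 2 (adjusted p = 0.183), 30 µM 1 (0.0644) or 30 µM 3 (0.0936), nor without the 3 libraries that deviate together (0.0688), nor in DESeq2 (0.132).

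PROC, the precursor of activated protein C, had 111, 105 and 105 CPM in control libraries, 128, 139.9 and 129 CPM at 20 µM and 111, 117 and 116 CPM at 30 µM. The 20 µM libraries were highest, and the lowest 30 µM library barely exceeded the highest control. PROC rose by 0.31 ± 0.041 (adjusted p = 3.05e-07) at 20 µM and by 0.098 ± 0.042 (adjusted p = 0.0417) at 30 µM against control. The rise at 30 µM turned to -0.11 (adjusted p = 0.0173) with library totals alone. It did not pass without control 2 (0.153), control 3 (0.151), 20 µM 3 (0.0587), 30 µM 2 (0.158) or 30 µM 3 (0.0825, adjusted p in each case). SERPIND1, heparin cofactor II, a thrombin inhibitor, had 269.6, 267 and 259 CPM in control libraries, 288, 293 and 298 CPM at 20 µM and 265, 255 and 256 CPM at 30 µM. Only the 20 µM libraries stood clear of the controls, on the high side. SERPIND1 changed by 0.14 ± 0.033 (adjusted p = 0.000785) at 20 µM and by -0.037 ± 0.033 (adjusted p = 0.34) at 30 µM against control, the second value being -0.25 (adjusted p = 4.07e-08) with library totals alone. PROS1, the cofactor of activated protein C, averaged 68.3 ± 5.04 CPM in control libraries, 70.02 ± 2.38 CPM at 20 µM and 55.4 ± 0.727 CPM at 30 µM (SD, n = 3 each). It changed by 0.037 ± 0.049 (adjusted p = 0.625) at 20 µM and fell by 0.30 ± 0.050 at 30 µM (adjusted p = 3.62e-06), each against control.

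The genes that restrain clot dissolution moved apart. CPB2, a carboxypeptidase that trims fibrin and so slows plasmin, had 229, 231 and 233 CPM in control libraries, 197, 192 and 205 CPM at 20 µM and 93.8, 93.3 and 92.4 CPM at 30 µM. The 3 groups were far apart, with the 30 µM libraries lowest and the controls highest. CPB2 fell by 0.22 ± 0.035 at 20 µM (adjusted p = 4.76e-06) and by 1.31 ± 0.036 at 30 µM (adjusted p = 3.39e-25), a 2.48-fold lower level at 30 µM. SERPINF2, the plasmin inhibitor alpha-2-antiplasmin, had 518, 529 and 531 CPM in control libraries, 672, 754 and 706 CPM at 20 µM and 493, 477 and 515 CPM at 30 µM. All 20 µM libraries stood above the rest, and the 30 µM libraries lay slightly below the controls. SERPINF2 rose by 0.43 ± 0.036 (adjusted p = 3.6e-11) at 20 µM and changed by -0.087 ± 0.036 (adjusted p = 0.0385) at 30 µM against control. The change at 30 µM did not pass without control 2 (adjusted p = 0.0991), control 3 (0.09), 30 µM 1 (0.108) or 30 µM 2 (0.216), nor in DESeq2 (0.185).

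The promoter of CPB2 is shown because its fall at 30 µM had the smallest p-value of the 35 genes; it lies at chr13:46104984-46105283 on the minus strand, and capitals mark a C/EBP and a STAT match close to the start.
CPB2: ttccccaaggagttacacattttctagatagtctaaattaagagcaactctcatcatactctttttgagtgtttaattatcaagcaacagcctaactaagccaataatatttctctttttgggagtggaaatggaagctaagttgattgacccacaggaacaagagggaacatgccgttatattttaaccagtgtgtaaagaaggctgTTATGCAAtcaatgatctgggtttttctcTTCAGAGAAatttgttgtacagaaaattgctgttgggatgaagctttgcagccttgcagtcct
PLG, the plasmin precursor that CPB2 and SERPINF2 act against, was too low to be tested, with 3, 11 and 16 counts in control libraries, 3, 3 and 4 counts at 20 µM and 0, 1 and 6 counts at 30 µM.

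**Figure D3:**
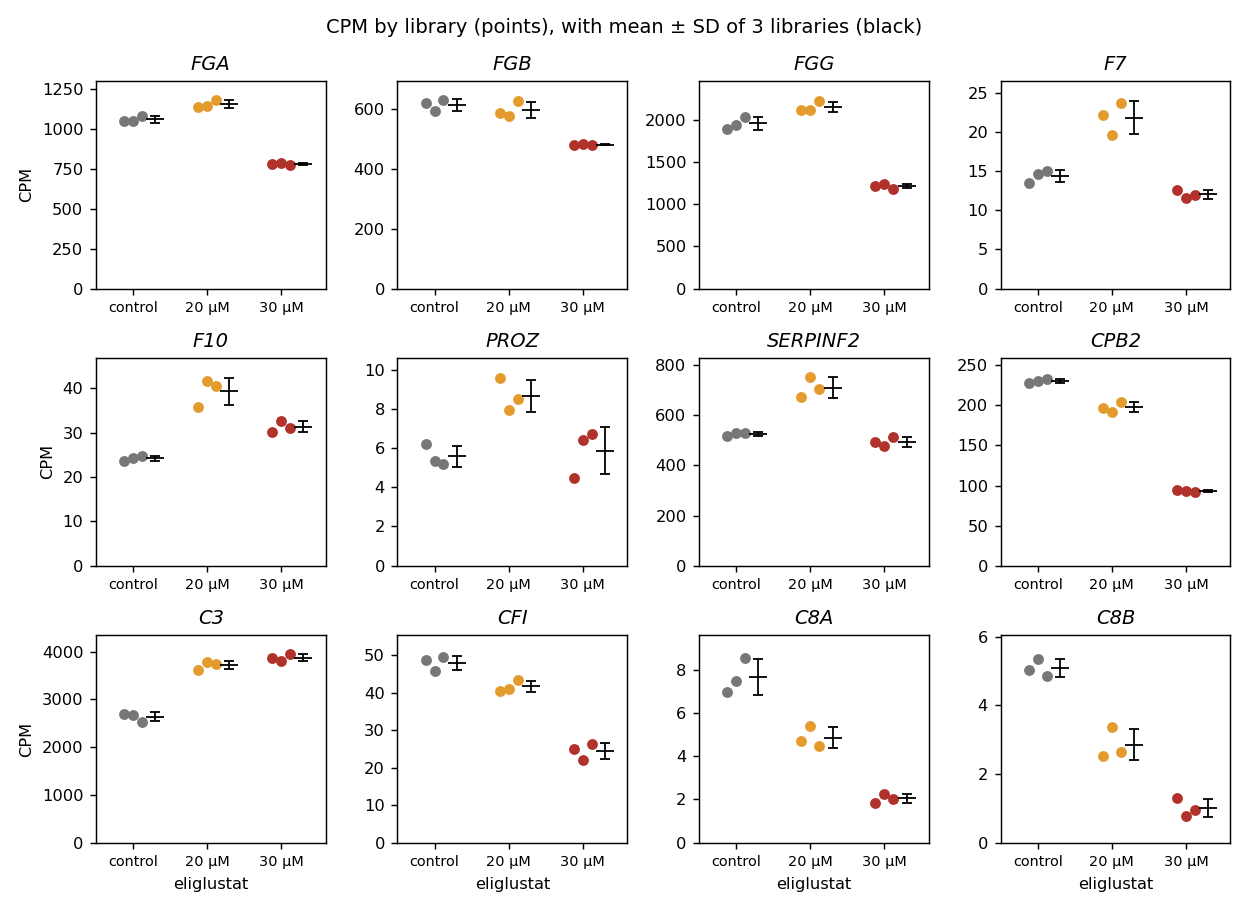
CPM in each library of 12 of the genes (points), with mean ± SD of the 3 libraries of each group in black; every axis starts at 0. F7, F10, PROZ and SERPINF2 peak at 20 µM, CPB2, CFI, C8A and C8B step down from control to 30 µM, and C3 is higher at both doses than in control libraries.

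C3, the component on which all complement routes converge, was higher at both doses and was the most abundant complement RNA of the group. It had 2704, 2675 and 2537 CPM in control libraries, 3617, 3789.8 and 3742 CPM at 20 µM and 3869.5, 3797 and 3951 CPM at 30 µM. The controls lay below every treated library, and the 30 µM libraries only just above those at 20 µM. C3 rose by 0.49 ± 0.030 (adjusted p = 1.38e-14) at 20 µM and by 0.55 ± 0.030 (adjusted p = 4.17e-17) at 30 µM, 1.41-fold and 1.47-fold over control. For 30 µM against 20 µM the value was 0.060 ± 0.030 (adjusted p = 0.0946), and it was 0.079 with median-ratio size factors (adjusted p = 0.0344) and -0.13 with library totals alone (adjusted p = 0.000107), so its direction depends on the scaling. CFB, the protease of the alternative route, averaged 13.05 ± 1.12 CPM in control libraries, 18.4 ± 2.07 CPM at 20 µM and 13.01 ± 1.27 CPM at 30 µM (SD, n = 3 each). CFB rose by 0.49 ± 0.093 (adjusted p = 6.86e-05) at 20 µM and changed by -0.0022 ± 0.097 (adjusted p = 0.987) at 30 µM against control. CFB and C2 share 23 exon bases. A read-through gene listed at 0 counts covers 2249 of the 4997 exon bases of CFB and 1820 of the 5536 of C2. Reads in shared exons may have been left uncounted.

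In the lectin route, the recognition molecule MBL2 and the protease MASP2 fell at 30 µM against control. MBL2 had 14.1, 14.7 and 14.2 CPM in control libraries, 13.2, 14.2 and 14.5 CPM at 20 µM and 6.43, 8.91 and 7.72 CPM at 30 µM. Control and 20 µM libraries overlapped, and every 30 µM library was lower. MBL2 changed by -0.040 ± 0.096 (adjusted p = 0.799) at 20 µM and fell by 0.90 ± 0.10 at 30 µM (adjusted p = 2.7e-09) against control. MASP2, which cleaves C4 and C2, had 28.9, 27.05 and 25.98 CPM in control libraries, 34.7, 34.7 and 32.4 CPM at 20 µM and 22.1, 23.8 and 24.2 CPM at 30 µM. The 20 µM libraries lay above the controls and the 30 µM libraries below them. MASP2 changed by 0.31 ± 0.063 (adjusted p = 0.000129) at 20 µM, by -0.22 ± 0.065 (adjusted p = 0.00334) at 30 µM against control and by -0.54 ± 0.064 (adjusted p = 8.4e-09) between 30 and 20 µM. MASP1, whose product starts the lectin route and whose gene also makes other splice forms that gene counts cannot separate, had 2.01, 1.49 and 1.94 CPM in control libraries, 1.17, 1.42 and 1.22 CPM at 20 µM and 2.45, 2.104 and 2.19 CPM at 30 µM. Controls lay above the 20 µM libraries and below those at 30 µM. MASP1 changed by -0.52 ± 0.24 (adjusted p = 0.0908) at 20 µM and by 0.30 ± 0.22 (adjusted p = 0.253) at 30 µM against control, neither past the test, and rose by 0.82 ± 0.23 (adjusted p = 0.00328) at 30 µM against 20 µM, on 395 counts over the 9 libraries.

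Among the proteases of the classical route, C2 averaged 33.6 ± 2.69 CPM in control libraries, 45.2 ± 2.37 CPM at 20 µM and 43.02 ± 2.64 CPM at 30 µM (SD, n = 3 each). It rose by 0.43 ± 0.061 (adjusted p = 1.05e-06) at 20 µM and by 0.36 ± 0.062 (adjusted p = 7.53e-06) at 30 µM against control. C1S averaged 19.5 ± 0.565 CPM in control libraries, 21.996 ± 1.12 CPM at 20 µM and 21.4 ± 1.07 CPM at 30 µM and changed by 0.17 ± 0.071 (adjusted p = 0.0607) at 20 µM and by 0.13 ± 0.071 (adjusted p = 0.114) at 30 µM against control, the second value turning to -0.079 with library totals alone. C1R, its partner in the C1 complex, had 2.33, 1.53 and 2.26 CPM in control libraries, 2.49, 2.17 and 2.69 CPM at 20 µM and 2.4999, 1.65 and 1.03 CPM at 30 µM. Its groups overlapped. C1R changed by 0.25 ± 0.25 (adjusted p = 0.478) at 20 µM and -0.26 ± 0.26 (adjusted p = 0.393) at 30 µM against control and by -0.52 ± 0.26 (adjusted p = 0.0848) at 30 µM against 20 µM. Neither C1S nor C1R passed the test in any of the 3 comparisons over the 17623 genes and all 9 libraries on the TMM scale. With library totals alone both passed at 30 µM against 20 µM, C1S at -0.23 (adjusted p = 0.00566) and C1R at -0.71 (adjusted p = 0.0174). C1R also passed there without 30 µM 1, at -0.87 (adjusted p = 0.00812), and C1S at 20 µM against control with a mean of at least 50 counts (adjusted p = 0.0373) or without 20 µM 2 (adjusted p = 0.0406). C1R shares 672 exon bases with C1RL on the same strand, so reads there may have been lost to both.

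The terminal pathway held the largest falls of the group, in the alpha and beta chains of C8, a subunit of the membrane pore. C8B had 5.02, 5.36 and 4.85 CPM in control libraries, 2.53, 3.38 and 2.65 CPM at 20 µM and 1.296, 0.784 and 0.9497 CPM at 30 µM. The groups stepped down without overlap, and at 30 µM the libraries held 28, 19 and 23 counts, against 140, 119 and 135 counts in the controls. C8B fell by 0.83 ± 0.18 at 20 µM (adjusted p = 0.000343) and by 2.33 ± 0.21 at 30 µM (adjusted p = 9.34e-12), a 5.04-fold lower level at 30 µM. C8A had 6.96, 7.48 and 8.55 CPM in control libraries, 4.72, 5.39 and 4.49 CPM at 20 µM and 1.85, 2.27 and 2.02 CPM at 30 µM. The groups again did not overlap, with 30 µM lowest. C8A fell by 0.66 ± 0.14 at 20 µM (adjusted p = 0.000263) and by 1.90 ± 0.16 at 30 µM (adjusted p = 1.17e-12). C8G, the gamma chain, which lies on another chromosome, had 16.7, 19.6 and 16.9 CPM in control libraries, 16.4, 21.8 and 18.2 CPM at 20 µM and 11.99, 11.9 and 15.1 CPM at 30 µM. Control and 20 µM libraries overlapped, and the 30 µM libraries were lower. C8G changed by 0.088 ± 0.10 (adjusted p = 0.582) at 20 µM and by -0.44 ± 0.11 (adjusted p = 0.00146) at 30 µM against control.

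Per length, C8G took 74.97 ± 1.88% of the summed TPM of the 3 C8 chains in control libraries, 83.9 ± 0.882% at 20 µM and 89.997 ± 1.37% at 30 µM (SD, n = 3 each), without overlap between groups. C8A and C8B are neighbours on chromosome 1, at chr1:56854806-56918221 (plus) and chr1:56929210-56966140 (minus). Their promoters are shown because these genes fell most, C8A at chr1:56854547-56854846 and C8B at chr1:56965966-56966265, and neither has capitals because none of the 5 motifs was in the window.
C8A: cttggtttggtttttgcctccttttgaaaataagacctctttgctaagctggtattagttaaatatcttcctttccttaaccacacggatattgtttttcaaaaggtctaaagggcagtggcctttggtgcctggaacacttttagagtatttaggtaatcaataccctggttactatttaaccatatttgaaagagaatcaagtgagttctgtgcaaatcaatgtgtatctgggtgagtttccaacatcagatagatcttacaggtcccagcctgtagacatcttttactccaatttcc
C8B: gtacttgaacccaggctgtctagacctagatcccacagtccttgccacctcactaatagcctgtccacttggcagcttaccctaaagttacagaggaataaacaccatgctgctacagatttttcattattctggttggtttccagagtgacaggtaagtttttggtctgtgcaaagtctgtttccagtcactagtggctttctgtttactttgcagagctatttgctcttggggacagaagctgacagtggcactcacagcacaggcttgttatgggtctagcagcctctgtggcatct
C6, another pore subunit, had 2.44, 2.34 and 2.44 CPM in control libraries, 3.74, 3.34 and 3.02 CPM at 20 µM and 1.94, 1.897 and 2.19 CPM at 30 µM. The 20 µM libraries lay above the controls and the 30 µM libraries below. C6 changed by 0.48 ± 0.18 (adjusted p = 0.0412) at 20 µM, by -0.26 ± 0.20 (adjusted p = 0.257) at 30 µM against control (-0.47 with library totals alone, adjusted p = 0.0362) and by -0.74 ± 0.19 (adjusted p = 0.00119) at 30 µM against 20 µM. The first call did not pass in DESeq2 (adjusted p = 0.0739), nor without control 1 (0.0789), control 2 (0.103), control 3 (0.0854), 20 µM 1 (0.154) or 20 µM 2 (0.0809), nor without the 3 libraries that deviate together (0.0517). C5, which opens the terminal pathway, averaged 21.4 ± 0.632 CPM in control libraries, 19.4 ± 2.22 CPM at 20 µM and 15.6 ± 0.551 CPM at 30 µM (SD, n = 3 each) and changed by -0.14 ± 0.078 (adjusted p = 0.184) at 20 µM and by -0.45 ± 0.080 (adjusted p = 1.14e-05) at 30 µM against control.

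Of the 5 regulators of complement, CFI showed the largest change. CFI, the protease that inactivates C3b and C4b, had 48.6, 45.9 and 49.5 CPM in control libraries, 40.5, 41.1 and 43.5 CPM at 20 µM and 24.999, 22.2 and 26.2 CPM at 30 µM. The groups stepped down from control to 20 µM to 30 µM without overlap. CFI fell by 0.21 ± 0.058 at 20 µM (adjusted p = 0.00537) and by 0.97 ± 0.061 at 30 µM (adjusted p = 1.45e-15), the second a 1.96-fold lower level. A same-strand gene model listed at 0 counts covers 1562 of its 4875 exon bases, where reads may have been left uncounted in all 9 libraries. VTN (vitronectin), which blocks pore assembly, averaged 41.9 ± 0.5898 CPM in control libraries, 50.5 ± 0.9801 CPM at 20 µM and 50.8 ± 0.917 CPM at 30 µM (SD, n = 3 each). It rose by 0.27 ± 0.049 (adjusted p = 3.89e-05) at 20 µM and by 0.28 ± 0.049 (adjusted p = 9.36e-06) at 30 µM against control, the second change being 0.068 (adjusted p = 0.234) with library totals alone. Between 30 and 20 µM its value was 0.0085 ± 0.049 (adjusted p = 0.901), which turned to -0.19 (adjusted p = 0.00153) with library totals alone.

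The 2 chains of C4b-binding protein, a cofactor of CFI, stayed close to each other. C4BPA averaged 24.4 ± 0.363 CPM in control libraries, 25.3 ± 0.9404 CPM at 20 µM and 20.7 ± 0.3996 CPM at 30 µM, and C4BPB averaged 49.5 ± 0.293 CPM in control libraries, 51.2 ± 0.276 CPM at 20 µM and 43.01 ± 2.19 CPM at 30 µM (SD, n = 3 each). C4BPA changed by 0.050 ± 0.064 (adjusted p = 0.605) at 20 µM and by -0.23 ± 0.066 (adjusted p = 0.00243) at 30 µM against control. The values of C4BPB were 0.049 ± 0.050 (adjusted p = 0.495) and -0.20 ± 0.051 (adjusted p = 0.000781) in the same comparisons. Their TPM ratio, C4BPA over C4BPB, was 0.649 ± 0.0107 in control libraries, 0.6502 ± 0.0272 at 20 µM and 0.637 ± 0.0459 at 30 µM, and the groups overlapped. SERPING1, the C1 inhibitor, which also restrains the contact system, averaged 2.22 ± 0.2195 CPM in control libraries, 3.14 ± 0.301 CPM at 20 µM and 2.27 ± 0.656 CPM at 30 µM (SD, n = 3 each). SERPING1 changed by 0.50 ± 0.21 (adjusted p = 0.0608) at 20 µM against control, with no overlap of the libraries. It passed there with a mean of at least 50 counts (0.0395), only the groups compared (0.0435), or without 30 µM 1 (0.0459) or 30 µM 3 (0.0458). At 30 µM against control SERPING1 changed by 0.036 ± 0.21 (adjusted p = 0.898), which turned to -0.17 with library totals alone. Between 30 and 20 µM its value was -0.46 ± 0.21 (adjusted p = 0.0581). With library totals alone that value was -0.65 (adjusted p = 0.00685).

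Coagulation and complement were then set beside each other, as counts and medians with no test between them, since genes are not replicates. At 20 µM against control, 11 of 17 tested coagulation genes rose and 1 fell (median 0.14), and 6 of 18 complement genes rose and 3 fell (median 0.13). At 30 µM against control, 4 coagulation genes rose and 10 fell (median -0.092), and 3 complement genes rose and 9 fell (median -0.23). At 30 µM against 20 µM, 16 coagulation genes fell and 0 rose (median -0.36), and 11 complement genes fell and 1 rose (median -0.48). Over all genes tested, 17.2% rose and 16.9% fell when 20 µM was set against control. The shares that rose and fell were 29.5% and 31.3% when 30 µM was, and 28.0% and 28.9% for 30 µM over 20 µM. The complement falls at 20 µM, 16.7% of the genes, were near the 16.9% of all genes. The medians of the systems lay close together at 20 µM, and both were below zero at 30 µM.

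Activators and inhibitors were compared the same way, over both cascades together. SERPINF2 and CPB2 were counted as inhibitors of fibrinolysis and PLG as an activator. At 20 µM against control, 11 of 23 tested activators rose and 2 fell (median 0.14), and 6 of 12 inhibitors rose and 2 fell (median 0.20). Over all genes tested, 17.2% rose and 16.9% fell, and the 2 inhibitor falls (16.7%) were near that share. By cascade, 6 of 10 coagulation and 5 of 13 complement activators rose. Of the inhibitors, 5 of 7 in coagulation rose (median 0.27), and 1 of 5 in complement (20%, median 0.050), near the share of all genes. At 30 µM against control, 5 activators rose and 12 fell (median -0.26), and 2 inhibitors rose and 7 fell (median -0.090). At 30 µM against 20 µM, 17 activators fell and 1 rose (median -0.52), and 10 inhibitors fell and 0 rose (median -0.35). In that comparison 28.9% of all genes tested fell and 28.0% rose. The shares that fell at 30 µM against control were 52.2% of activators and 58.3% of inhibitors, beside 31.3% of all genes, and those that rose were 21.7% and 16.7%, beside 29.5%. Both roles held genes that rose and genes that fell in each comparison with control.

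Smaller classes cut across these lines. At 20 µM against control they stand beside the 17.2% of all genes tested that rose and the 16.9% that fell. Of the 6 tested vitamin K-dependent genes (F2, F7, F10, PROC, PROS1 and PROZ), 5 rose at 20 µM and 0 fell (median 0.46), PROS1 being the exception at 0.037 ± 0.049. At 30 µM against control 2 of the 6 rose and 2 fell (median 0.018), 33.3% each way, near the shares of all genes. Of 8 tested genes known as acute phase reactants, 4 rose at 20 µM and 0 fell, and at 30 µM against control 1 rose (C3) and 5 fell (the 3 fibrinogen chains, MBL2 and C4BPA). Of 13 tested serine protease zymogens, 4 rose and 4 fell at 30 µM against control (median -0.0022), 30.8% each way, which is near the shares of all genes (29.5% rose and 31.3% fell). Of the 5 tested terminal pathway genes, 4 fell and 0 rose at 30 µM against control (median -0.45).

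Together the 40 genes took 0.891 ± 0.00537% of gene counts in control libraries, 1.06 ± 0.0147% at 20 µM and 0.757 ± 0.00434% at 30 µM (SD, n = 3 each), and the groups did not overlap. Coagulation genes took 0.579 ± 0.0133%, 0.636 ± 0.0111% and 0.379 ± 0.00347% in the same order of groups, and complement genes 0.313 ± 0.007899%, 0.424 ± 0.00761% and 0.379 ± 0.00601%. These shares are of library totals and carry no TMM scaling. The TMM factors averaged 1.054 in control libraries, 1.042 at 20 µM and 0.911 at 30 µM. Much of the drop of the 40 genes together from control to 30 µM thus depends on the scaling. Fibrinogen and C3 held most of the counts of the 40 genes. The fibrinogen chains made up 42.9 ± 1.198% of the counts of the 40 genes in control libraries, 38.3 ± 0.715% at 20 µM and 29.7 ± 0.629% at 30 µM. C3 made up 31.2 ± 1.05%, 36.5 ± 0.521% and 46.5 ± 0.552%, and so passed fibrinogen as the larger share of counts at 30 µM. Counts are not scaled by length, and C3 has 8328 exon bases, where FGB has 2708, FGG 3600 and FGA 3956. Per length at 30 µM, FGA, FGB and FGG had 559, 504 and 958 TPM and C3 1321 TPM. The 3 chains together thus stayed above C3 per length.

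**Figure D4:**
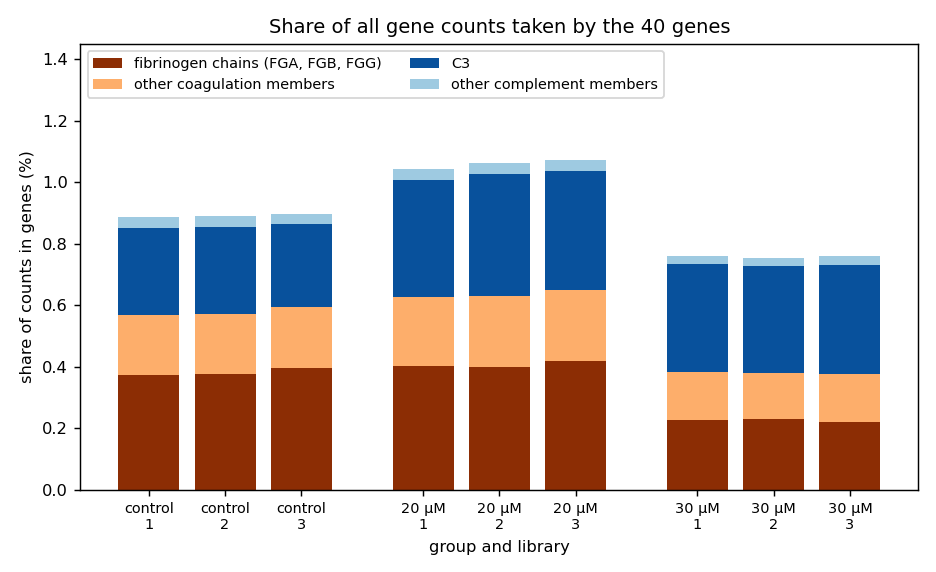
Share of all gene counts (%) taken by the 40 genes in each library, split into fibrinogen chains, other coagulation genes, C3 and other complement genes. Shares are of library totals, with no TMM scaling. The bars are tallest at 20 µM and shortest at 30 µM, where the C3 part stays above its control height and the fibrinogen part does not.

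On the length-scaled TPM, the 35 tested genes spanned a wide range in control libraries. TPM carry no TMM scaling, so their steps between groups can differ from those in CPM. In CPM, C3 averaged 3716 at 20 µM and 3873 at 30 µM. FGG was highest with 1888 TPM in control libraries, 2006 TPM at 20 µM and 958 TPM at 30 µM, and C3 was next with 1098 TPM in control libraries, 1493 TPM at 20 µM and 1321 TPM at 30 µM. At 30 µM C3 stood above FGG. Below them in control libraries came FGA with 927 ± 30.2 TPM, FGB with 786 ± 30.4 TPM and SERPINF2 with 777 ± 20.97 TPM (SD, n = 3 each), and FGB and SERPINF2 differed by less than their spread. CPB2 followed with 467 ± 11.4 TPM, then F2 with 364 ± 11.2 TPM and SERPIND1 with 360.4 ± 2.98 TPM, again within their spread. The lowest of the tested genes was MASP1, with 0.477 TPM in control libraries, 0.323 TPM at 20 µM and 0.486 TPM at 30 µM.

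The remaining 5 genes had too few counts to be tested. F9, the protease of the intrinsic tenase, and KLKB1 were listed at 0 in every library, where 3 counts would be 0.112 to 0.142 CPM, and whether this depends on the annotation used for counting was not tested. F13B, the carrier subunit of the fibrin cross-linking factor XIII, had 34 counts over the 9 libraries, PLG had 47 and C9, the subunit that forms the wall of the complement pore, had 26. These totals allow no comparison of groups. KLKB1 shares 201 exon bases with CYP4V2 and C9 shares 119 with DAB2 on the same strand.

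Promoters were found in the RefSeq table for 34 of the 40 genes, and SERPINC1, SERPINF2, SERPING1, C1S, C3 and C8G were not in it. The HNF1 letters stood in 9 of the 34 (26.5%), against 6.89% of all 27305 promoters of the same length. HNF4 letters stood in 8.82%, against 1.21% of all, C/EBP letters in 26.5%, against 10.6%, and STAT letters in 32.4%, against 7.88%. The NF-kB letters stood in 0 of the 34, against 1.41% of all. A match is only a run of letters in this window and says nothing of whether a factor was bound.

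Other genes of the pathways, on lists outside the 40, were counted for 30 µM against control, where 29.5% of all genes tested rose and 31.3% fell. Of 17 tested relatives of coagulation, 13 rose and 2 fell (76.5% and 11.8%). SERPINE2, a thrombin inhibitor, rose by 1.60 ± 0.082 (adjusted p = 6.73e-18), and TFPI, the inhibitor of the factor VIIa and tissue factor complex, by 1.15 ± 0.036 (adjusted p = 7.16e-24). F3, tissue factor itself, rose by 0.83 ± 0.13 (adjusted p = 8.01e-07). SERPINA10, the inhibitor that PROZ assists, fell by 0.92 ± 0.067 (adjusted p = 6.44e-14), and HGFAC, a protease related to factor XII, by 0.23 ± 0.088 (adjusted p = 0.0272).

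Of 12 tested relatives of complement, 4 rose and 5 fell at 30 µM against control (33.3% and 41.7%), not far from the shares of all genes. The cell-bound inhibitors CD55, CD59 and CD46 rose by 1.60 ± 0.082 (adjusted p = 6.24e-18), 0.57 ± 0.047 (adjusted p = 1.71e-12) and 0.21 ± 0.037 (adjusted p = 8.82e-06), but CD46 was at -0.0019 (adjusted p = 0.968) with library totals alone. CPN2, a subunit of the carboxypeptidase that inactivates anaphylatoxins, changed by -0.49 ± 0.044 (adjusted p = 3.48e-11), and the mitochondrial and C1q-binding protein C1QBP by -0.47 ± 0.038 (adjusted p = 8.65e-13). The fluid-phase inhibitor clusterin (CLU) changed by -0.36 ± 0.039 (adjusted p = 1.28e-09) and the lectin COLEC11 by -0.34 ± 0.091 (adjusted p = 0.00135). Of 8 genes for the vitamin K cycle, proprotein cleavage and secretion of clotting factors, 4 rose and 1 fell. Proprotein convertase FURIN rose by 0.97 ± 0.042 (adjusted p = 7.45e-20), VKORC1L1 of the vitamin K cycle by 0.15 ± 0.042 (adjusted p = 0.00255), and the cargo receptor pair LMAN1 and MCFD2 by 0.12 ± 0.034 (adjusted p = 0.00348) and 0.11 ± 0.035 (adjusted p = 0.00765). With library totals alone, an alternative chosen for these lists after the data had been seen, VKORC1L1 turned to -0.059 (adjusted p = 0.235), LMAN1 to -0.092 (adjusted p = 0.0204) and MCFD2 to -0.10 (adjusted p = 0.0124), so 3 of the 4 rises depend on the scaling. GGCX, the vitamin K-dependent carboxylase, changed by -0.13 ± 0.036 (adjusted p = 0.00237).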

How the data were processed

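Each deposited file holds the raw read counts of 1 library by gene. Per the submitters' processing notes, the authors used FastQC, STAR 2.7.10a, the hg38 build and HTSeq. The strand setting and annotation release of the counting were not given in the sources used here. The labels name the molecule as polyA RNA, whereas the labels' protocols describe depletion of ribosomal RNA and a stranded total RNA kit, on RNA taken up with a kit for fixed tissue. A further incubation and a 10 µM dose in the series text are not stated to apply to these libraries. The 5 closing HTSeq totals were kept out of library sizes and tests (no single gene, 40.62 to 43.98% of records).

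Symbols and positions came from GENCODE 29 on GRCh38, and promoters from RefSeq (GRCh38.p14). Genes kept by filterByExpr were TMM-scaled, and edgeR 4.0.16 in R 4.3.3 tested them (robust quasi-likelihood, a mean per group, all 9 libraries) and Benjamini-Hochberg adjustment over 17623 genes, with limma 3.58.1 loaded and DESeq2 1.42.0 as an alternative. The SE is the size of the log2 change over the square root of F. CPM use TMM-scaled library sizes, and TPM use exon length. The test was checked on simulated data. Every one of the 40 genes is named. CPM per library is given for genes that changed by at least 0.5 log2 units in any comparison or average at least 100 CPM, and up to 4 relatives per list and direction of at least 5 CPM are named. The genes, classes, lists and alternatives were chosen with earlier results of these data known. Depth limits precision to counting error at low counts, and no interval over cultures can be given. Alternatives were other scalings and count filters, DESeq2, only the groups compared, a replicate block and libraries left out. Splicing and protein levels were not analysed here, and a relative that the naming rule selects is not reported here.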

Additional observations from a re-analysis of the deposited data

How the results depend on the processing

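Alternatives were median-ratio size factors, library totals alone, no filter on low counts, a mean of at least 50 counts, DESeq2, only the groups compared, a replicate block, leaving out single libraries, and leaving out the 3 that deviate together. Over the 35 genes and these settings, 571 single values at 20 µM against control kept direction and side of the threshold, 11 no longer passed, 7 newly passed and 4 turned sign. At 30 µM against control the counts were 540, 30, 3 and 20, and between the doses 574, 0, 11 and 8. With library totals alone, 3530 of all 17623 genes tested rose and 8022 fell at 30 µM against control. Between the doses 3029 of all genes rose and 7690 fell. Among the 35, library totals alone gave 3 rises at 30 µM against control, all among the 7, and 23 falls (19 on the TMM scale). Between the doses 33 of the 35 fell (27 on the TMM scale). At 30 µM against control the medians were -0.30 (coagulation), -0.44 (complement), -0.47 (activators) and -0.30 (inhibitors) with library totals alone. For 30 µM against 20 µM the medians were -0.55, -0.67, -0.71 and -0.54 in that order, and the inhibitors at 20 µM against control 0.19. It turned F5 to -0.063, PROC to -0.11, PROZ to -0.13, SERPING1 to -0.17 and C1S to -0.079 at 30 µM against control, and VTN to -0.19 and C3 to -0.13 between the doses. CFB, near zero at 30 µM against control, turned to 0.021 with median-ratio factors, 0.0093 with no filter, 0.021 in DESeq2 and 0.013 with only the groups compared. Without the 3 libraries, PROS1 at 20 µM became -0.039, SERPING1 -0.10 and C1R 0.095 at 30 µM against control, and C1S 0.0029 between the doses. The medians were then -0.22 (coagulation), -0.18 (complement) and -0.32 (activators) at 30 µM against control, 0.19 (inhibitors) at 20 µM, and -0.42 (coagulation) and -0.39 (complement) between the doses. With at least 50 counts, MASP1 was not tested and the number that rose between the doses was 0, where it was 2 with median-ratio factors and in DESeq2. That filter gave medians of 0.18 (complement, 20 µM), -0.19 (coagulation, 30 µM against control), -0.46 (coagulation) and -0.37 (inhibitors) between the doses, and VTN -0.010. Between the doses the inhibitor median was -0.33 with median-ratio factors and -0.33 in DESeq2. The complement median at 20 µM was 0.090 with no filter and 0.069 without SERPING1 and VTN. The share of counts among nuclear protein-coding genes was 0.966% in control libraries, 1.16% at 20 µM and 0.842% at 30 µM. The cause was not tested in any of these.

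With each library left out in turn, 16 to 18 genes rose and 4 to 5 fell at 20 µM, 5 to 7 rose and 17 to 20 fell at 30 µM against control, and 27 to 28 fell between the doses. Medians ranged over 0.12 to 0.19 (coagulation), 0.11 to 0.16 (complement), 0.11 to 0.18 (activators) and 0.19 to 0.21 (inhibitors) at 20 µM against control, -0.20 to -0.084, -0.24 to -0.19, -0.31 to -0.24 and -0.14 to -0.075 at 30 µM against control, and -0.45 to -0.34, -0.48 to -0.39, -0.55 to -0.43 and -0.37 to -0.31 between the doses, in the same order. Values near zero changed sign, within -0.020 to 0.085 for PROS1, -0.074 to 0.00059 for MBL2 and -0.032 to 0.18 for C8G at 20 µM, -0.083 to 0.055 for CFB, -0.19 to 0.22 for SERPING1, -0.028 to 0.23 for PROZ and -0.62 to 0.0050 for C1R at 30 µM against control, and -0.0041 to 0.025 for VTN and -0.078 to 0.0035 for C1S between the doses. Same-numbered libraries gave r = -0.202 to 0.143 with a control, and 0.152, 0.0767 and 0.352 between the dosed groups for numbers 1, 2 and 3. The labels do not say whether numbers pair cultures. With the replicate block the change of PROC at 30 µM against control (0.097, adjusted p = 0.0522) no longer passed, while no other call among the 35 genes changed. Genes under about 1 CPM held too few counts for a firm value, and 3 counts were 0.112 to 0.142 CPM. Groups of 3 are too small for a test of outlying libraries.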

Other observations

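Of the 40 genes, 16 lie in 7 groups of neighbours on their chromosomes, joined where gaps were at most 100000 bases. Tested protein-coding genes within each group, and the nearest on each side, were looked up after the values had been seen. Genes that were not tested were skipped, so the nearest tested gene need not be adjacent. F7, F10 and PROZ, which had the 3 largest rises at 20 µM among the 35 tested genes, stand in a row on the plus strand of chromosome 13 over 66596 bases. On one side MCF2L, a guanine nucleotide exchange factor gene, changed by 0.52 ± 0.080 (adjusted p = 3e-06) at 20 µM and by 0.089 ± 0.083 (adjusted p = 0.369) at 30 µM against control. On the other side PCID2 changed by -0.11 ± 0.054 (adjusted p = 0.125) and -0.084 ± 0.054 (adjusted p = 0.18) in the same comparisons. C8A and C8B, the largest falls, lie between FYB2, which changed by -0.087 ± 0.15 (adjusted p = 0.706) at 20 µM and -2.34 ± 0.18 (adjusted p = 3.54e-13) at 30 µM, and DAB1, which changed by -0.15 ± 0.30 (adjusted p = 0.761) and -1.05 ± 0.33 (adjusted p = 0.00621). Beside C4BPB and C4BPA, which both fell at 30 µM against control, PFKFB2 changed by 0.97 ± 0.062 (adjusted p = 2.21e-15). CD55, a cell-bound complement inhibitor 176404 bases away on the other side, changed there by 1.60 ± 0.082 (adjusted p = 6.24e-18). Around C2 and CFB, the gene ZBTB12 inside the C2 span on the other strand changed by -1.17 ± 0.080 (adjusted p = 1.22e-14) and EHMT2 by -0.93 ± 0.045 (adjusted p = 6.35e-18) at 30 µM against control, where C2 itself changed by 0.36 ± 0.062 (adjusted p = 7.53e-06). The nearest tested genes around the fibrinogen chains changed at 30 µM against control by -0.37 ± 0.060 (adjusted p = 5.47e-06) (PLRG1) and 0.59 ± 0.063 (adjusted p = 5.48e-10) (PDGFC, 2147487 bases away).

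Genes whose products act in one cascade or on one another did not always change the same way at 30 µM against control. CFI fell by 0.97 ± 0.061, while C3, whose active fragment it cleaves, rose by 0.55 ± 0.030, and the cell-bound inhibitors CD55 and CD59 rose by 1.60 ± 0.082 and 0.57 ± 0.047. PROZ did not pass the test (0.077 ± 0.14, adjusted p = 0.659), while the inhibitor it assists, SERPINA10, fell by 0.92 ± 0.067 (adjusted p = 6.44e-14). Whether secreted protein followed RNA was not analysed here.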
